A study of Homo sapiens with 8 samples.

Results

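The genes described here make non-essential amino acids, move amino acids across membranes, or carry one-carbon units for serine and glycine metabolism, together with 4 companion genes that are known targets of the same stress response. The list holds 37 genes: 9 of serine and one-carbon synthesis, 13 of other synthesis, 11 transporters and 4 companions. A gene was measured when a probe carrying its symbol in the platform annotation exceeded the floor of 20 intensity units on at least 2 of the 8 arrays, and its brightest such probe stood for it. By this rule 35 of the 37 genes were measured, among 12759 genes tested in all. The single probe for ALDH1L2, a mitochondrial folate dehydrogenase, lay at the floor on all 8 arrays, and GPT2 was not analysed here.

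RNA came from MNNG/HOS, a human osteosarcoma cell line derived from HOS cells by chemical transformation, and was hybridised to Illumina expression arrays. The 4 groups were cells given 7.5 mM JQ1 together with 12.5 nM rapamycin, cells given 7.5 mM JQ1, cells given 12.5 nM rapamycin, and cells given DMSO, the solvent. Each group held 2 arrays, the millimolar unit of the JQ1 dose is the labels' own and no file allows a check of it, and for the treatment time the sources used here give nothing. All groups come from a single cell line, and synergy between the drugs is the question named in the title of the series. JQ1 competes with acetylated lysines for the bromodomains of BET proteins, and rapamycin, bound to FKBP1A, inhibits mTORC1, a kinase complex that responds to amino acids.

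Cells that run short of an amino acid, or that carry unfolded protein in the endoplasmic reticulum, phosphorylate the translation factor eIF2 alpha, and the transcription factor ATF4 is then translated. ATF4 pairs with C/EBP family proteins on composite elements in the promoters of amino acid synthesis and transport genes. mTORC1 is also known to act on ATF4, and many of the genes below, from PHGDH to SLC7A11, are known targets of it.

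The core letters of such a composite element, TGATGNAA, were searched on both strands of the RefSeq promoter windows (build GRCh38.p14, from 250 bases before to 50 bases after each annotated start). A window was given for 29 of the 37 genes, and 13 of these had several. The letters stood in a window of 10 of the 29 genes (34.5%), against 1217 of the 27305 genes with a window (4.46%) and 297 of the 10150 tested genes with a window (2.93%). By role, 5 of 10 transporters held them, 3 of 10 genes of other synthesis, 1 of 6 serine and one-carbon genes and 1 of 3 companions. The stricter form TGATGCAA stood in 6 of the 29 genes (20.7%), against 1.08% of all genes with a window, and the 5 letters TGATG alone stood in 15 of 29 (51.7%), against 37.7%. These counts describe letters in a fixed window and say nothing of binding, and the members were listed as known targets. The 5 stretches that lie wholly before the start are shown because they let the shared core be compared between a gene that read high in both rapamycin groups (ASNS), others with smaller differences (GOT1, CEBPG, SLC1A5) and one with none (BCAT1). Capitals mark the 8 matched letters, and each stretch is written 5′ to 3′ on the strand of its gene.
ASNS: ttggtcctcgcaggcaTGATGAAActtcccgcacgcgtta
GOT1: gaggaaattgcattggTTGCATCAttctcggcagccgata
CEBPG: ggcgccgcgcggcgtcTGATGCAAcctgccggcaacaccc
SLC1A5: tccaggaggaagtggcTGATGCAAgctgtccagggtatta
BCAT1: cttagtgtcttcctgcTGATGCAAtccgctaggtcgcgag

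The ASNS stretch is chr7:97872453-97872492 on the minus strand, and its match begins 68 bases before the start. The GOT1 stretch is chr10:99430799-99430838 on the minus strand, and it carries the letters in the opposite orientation, beginning 198 bases before the start. The CEBPG stretch is chr19:33374055-33374094 on the plus strand, with its match 42 bases before the start. The SLC1A5 stretch is chr19:46784888-46784927 on the minus strand, with its match 97 bases before the start. The BCAT1 stretch is chr12:24949126-24949165 on the minus strand, with its match 48 bases before the start. MTHFD1L, SLC1A4, SLC38A1, SLC3A2 and SLC7A1 also held the core letters, in stretches that reach or pass an annotated start. CTH, the gene with the largest change, had no match in its window.

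Intensities were linear, and differences were taken on the log2 scale. Mean intensity per array ran from 455.5 to 481.6, the share of the 47304 probes that lay at the floor was 55.7% to 58.6%, and replicate arrays correlated at 0.974 to 0.978 across the 23860 probes that passed the filter. No label names a separate culture for each array, so p-values measure spread among arrays that may be technical only. Replicate 2 differed from replicate 1 across groups in 12.5% of all genes, and each comparison is therefore also given with the replicate number as a term in the model. Vimentin (VIM), a filament protein of mesenchymal cells, read between 28108.3 and 33757.1, and 5 of 8 mesenchymal markers passed the filter, while those for FN1, COL1A2 and ALPL did not. Of 15 markers of other cell types 5 passed (CD14, EPCAM, PPARG, ADIPOQ and ACAN), while PTPRC, CD3E, HBB, CDH1 and CDH5 lay at the floor. PPARG read 535 to 2380.9 and EPCAM 146.8 to 224.9 over the 8 arrays. CD14 read 28.8 and 145.4 with both drugs, 170.7 and 307.9 with JQ1, 51.3 and 163.8 with rapamycin, and 280.6 and 476.1 with DMSO. With the replicate term CD14 (log2 change -2.50, adjusted p = 0.00704) and PPARG (-0.89, adjusted p = 0.0385) were called lower with both drugs than with DMSO, and neither was called without it (0.132 and 0.500). Over the 14 with a probe the summed level per array was 991.3 to 1632.6 with both drugs, 1132 to 1753 with JQ1, 1082 to 2210.2 with rapamycin and 1471.6 to 3235.2 with DMSO. Their part in the differences below was not tested. In RNA from whole cultures, fewer cells with a transcript and less of it per cell cannot be told apart.

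Array names need a statement before any result. The 2 deposited tables name 6 of the 8 arrays differently, although every array could be matched between them at a rank correlation of 0.997 or more, with 0.980 as the highest value for any other pairing. Values below follow the table that GEO ties to its sample records. Under the names in the other table no member was called in any of the 6 group comparisons. That table names as JQ1, alone or combined, exactly the arrays named here as rapamycin, alone or combined. Its replicate 2 arrays are exactly those named here as given JQ1, and its rapamycin arrays those named here as replicate 2. At an unadjusted p under 0.05 it gave 11 members for JQ1 against DMSO, beside 1054 of all genes. For replicate 2 against replicate 1 it gave 15, beside 5191. The median log2 change of the 35 members was then 0.08 for rapamycin against DMSO, where it is 0.57 under the names used, and 0.11 for the combination against rapamycin, where it is -0.47. With the signals of the other table, its own names called 1 of all genes for JQ1 against DMSO, where the names used called 547. For rapamycin against DMSO they called 43, where the names used called 14. For replicate 2 against replicate 1 the counts were 3691 and 2627. Which naming is right was not tested, and no label settles it.

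Rapamycin alone gave the highest group mean for 23 of the 35 measured members (65.7%), against 23.9% of all genes. That held for 6 of 8 serine and one-carbon genes, 5 of 12 other synthesis genes, 9 of 11 transporters and 3 of 4 companions. In 22 of the 35 members both rapamycin arrays lay above both DMSO arrays, and in 3 they lay below, where 18% and 18.4% of all genes did so. With both drugs the pattern was different: both arrays lay above DMSO in 7 members and below in 9 (22.8% and 26.1% of all genes), and with JQ1 alone in 8 and 10 (20.2% and 23.1%). Set against JQ1 alone, both arrays of the combination lay above in 6 and below in 5 (14.9% and 16.5%). Set against rapamycin alone, they lay below in 16 members and above in 2 (23.8% and 19.6% of all genes). The last comparison shares its rapamycin arrays with the first, so that the 2 sets of counts are not independent.

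**Figure D1:**
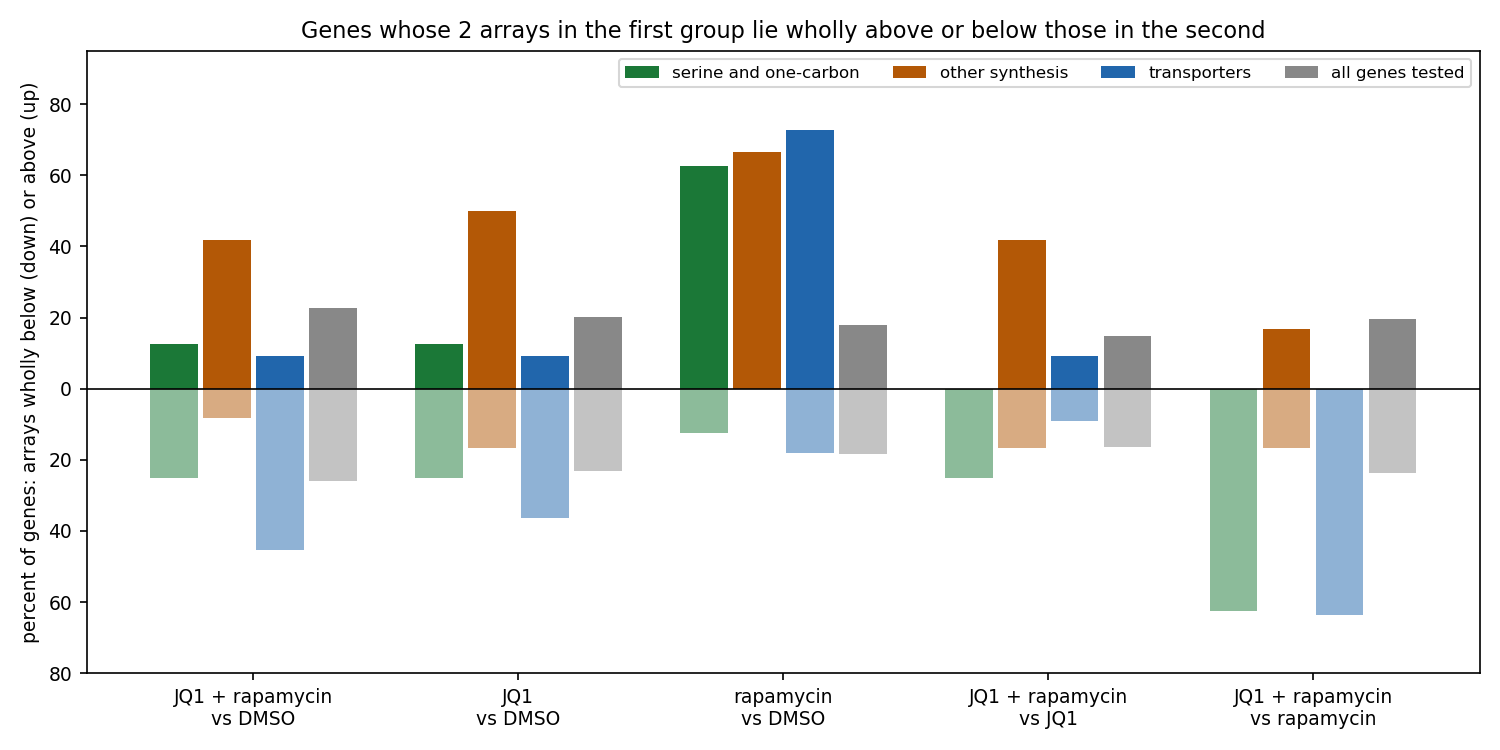
Share of genes (percent) whose 2 arrays in the first-named group lay wholly above (full colour, upward) or wholly below (pale, downward) those of the second, for serine and one-carbon genes (n = 8), other synthesis genes (n = 12), transporters (n = 11) and all 12759 genes tested. For rapamycin against DMSO, 5, 8 and 8 members of the 3 lists lay above, and for the combination against rapamycin 5, 2 and 7 lay below.

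Few of these differences passed the adjusted test. For rapamycin against DMSO, limma called no member at an adjusted p under 0.05, and it called 0.0235% of all genes, 3 in number. With the replicate term it called no member either, and 0.345% of all genes. At an unadjusted p under 0.05, 11 of 35 members were higher with rapamycin and none was lower, against 5.15% and 4.74% of all genes. The median log2 change of the members was 0.57, beside 0 for all genes, with 0.66 for serine and one-carbon genes, 0.46 for other synthesis, 0.64 for transporters and 0.57 for companions. Leaving out each of the 4 arrays in turn gave 22 to 26 members with the remaining rapamycin arrays above the DMSO arrays, where 28.3% to 36.4% of all genes did so. Such a count cannot fall when an array is left out, so this range does not test it.

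When the combination was set against DMSO, 1 member was called, CTH, which rose, while 7.18% of all genes were called, 2.93% higher and 4.25% lower. At an unadjusted p under 0.05, 4 members were higher and 2 lower (9.77% and 13.9% of all genes). With the replicate term 7 members were called, 4 higher and 3 lower, while 18.9% of all genes were called (7.77% higher and 11.2% lower), so that the members' share was near the background. For JQ1 against DMSO no member was called (2.83% of all genes), 1 was higher and 1 lower at an unadjusted p under 0.05 (7.58% and 10.5% of all genes), and 2 were lower with the replicate term (11.2% of all genes called, 4.48% higher and 6.7% lower). Between the combination and rapamycin no member was called (2.62% of all genes), 13 were lower and none higher at an unadjusted p under 0.05 (11% and 7.3%), and 8 were lower with the replicate term, where 11.3% of all genes were called (4.27% higher and 7.05% lower). Between the combination and JQ1 no member was called without the replicate term (0% of all genes) or with it (0.0157%), and 2 were higher and 1 lower at an unadjusted p under 0.05 (4.01% and 4.27% of all genes). All comparisons against DMSO share its 2 arrays.

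**Figure D2:**
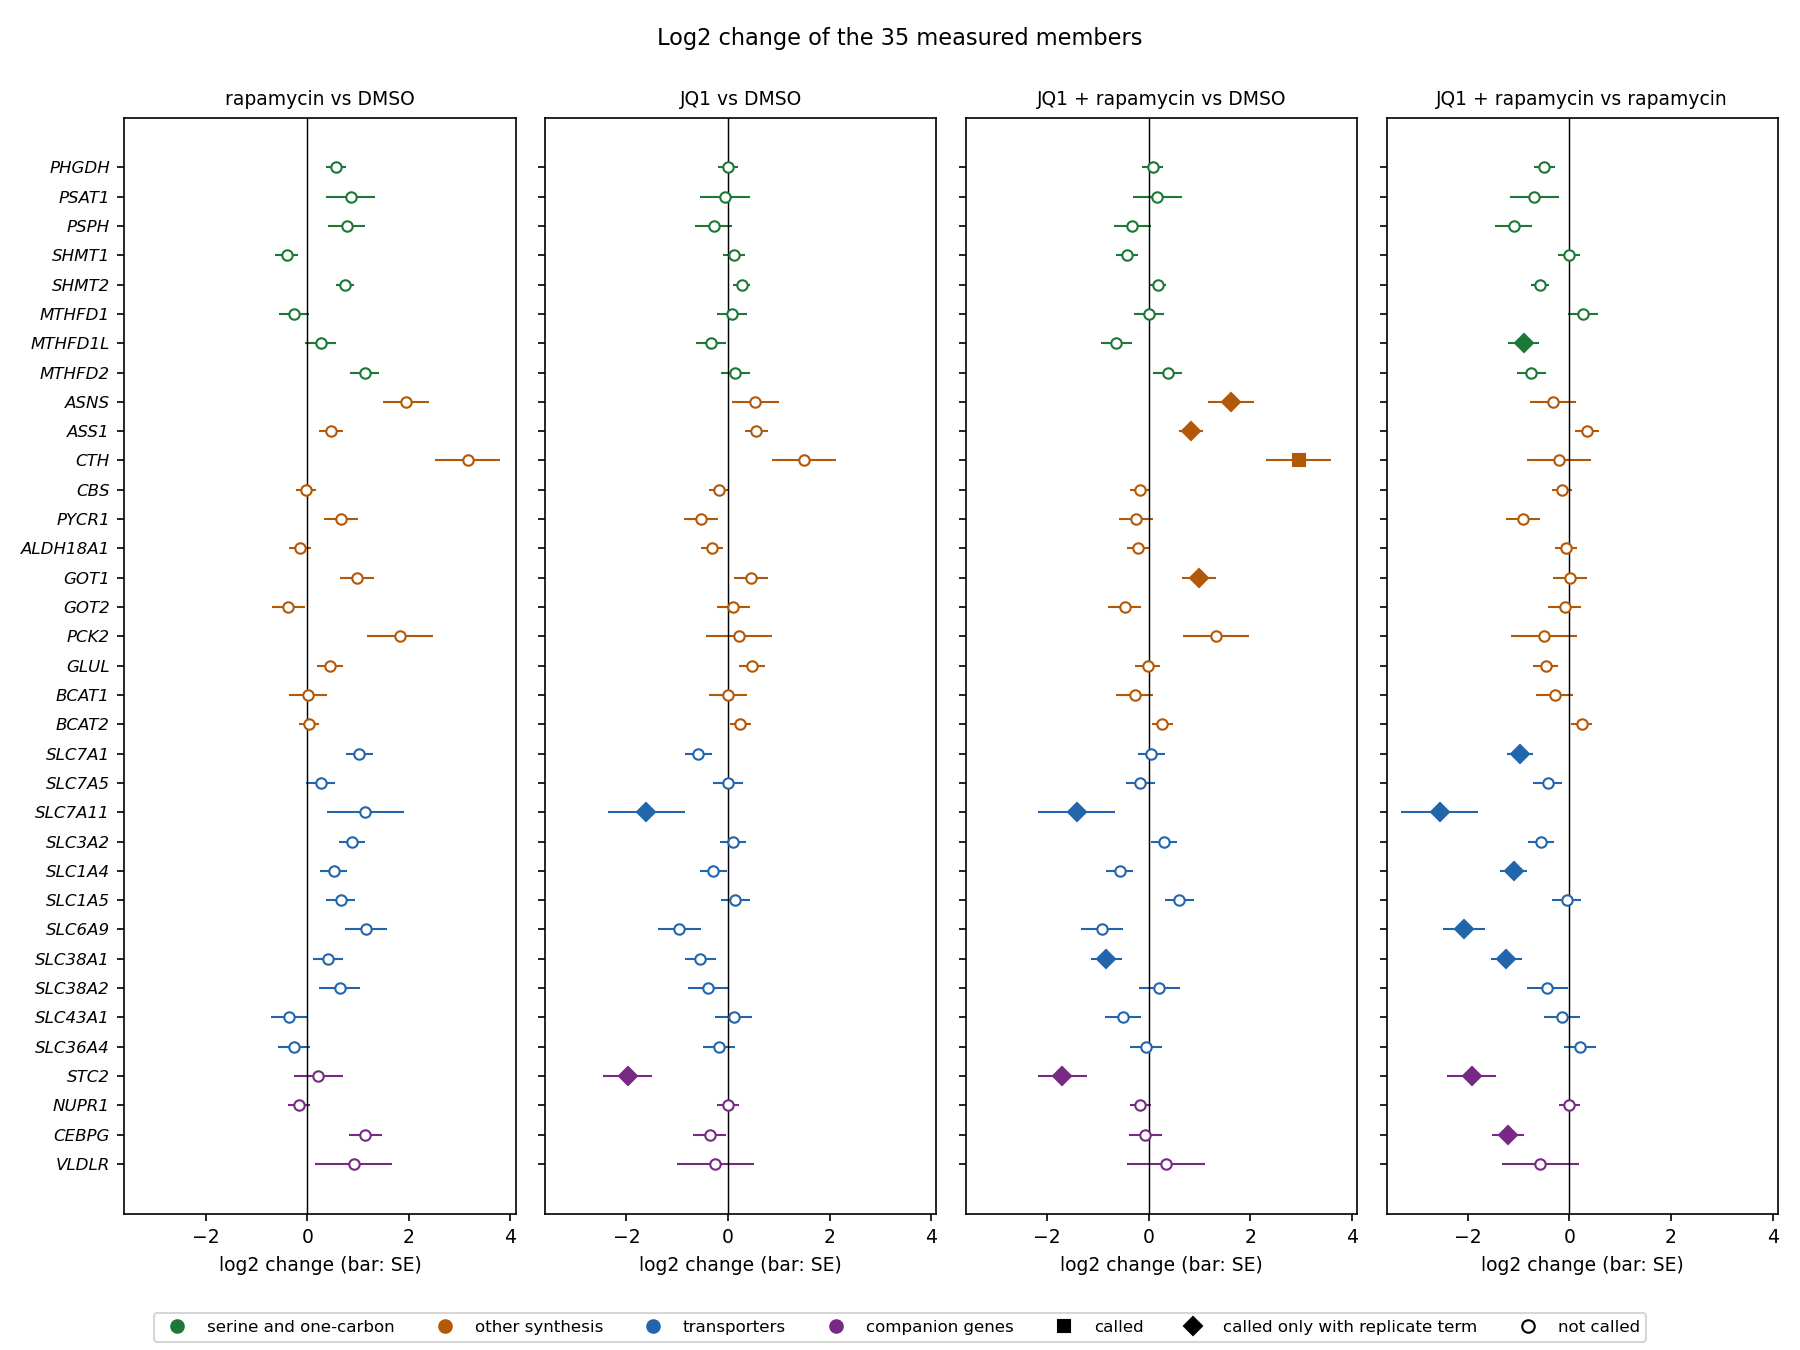
Log2 change with its standard error for each of the 35 measured members in 4 comparisons, coloured by role. The square marks CTH, called without the replicate term; diamonds mark members called only with it, 6 more for the combination against DMSO, 2 for JQ1 against DMSO and 8 for the combination against rapamycin; open circles were not called.

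Serine is made from a glycolytic intermediate by PHGDH, PSAT1 and PSPH in turn. PHGDH, the entry enzyme, whose array values are given after they were seen, read 10002.0 and 10123.3 with both drugs, 8425.7 and 10905.8 with JQ1, 14032.8 and 14315.4 with rapamycin, and 9095.5 and 10028.6 with DMSO. PSAT1, the aminotransferase of the second step, read 4467.9 and 1654.7 with both drugs, 2824.7 and 1912.2 with JQ1, 5501.9 and 3491.0 with rapamycin, and 2626.3 and 2235.5 with DMSO. PSPH, the phosphatase of the last step, read 269.2 and 128.1 with both drugs, 195.8 and 186.1 with JQ1, 475.1 and 332.6 with rapamycin, and 216.5 and 249.9 with DMSO. All 3 enzymes read higher on both rapamycin arrays than on any DMSO or JQ1 array, by 0.57, 0.86 and 0.77 on the log2 scale against DMSO, with adjusted p-values above 0.05 in each case. The combination arrays of PSAT1 and PSPH lay on either side of the DMSO arrays, replicate 1 above and replicate 2 below. Against rapamycin, PSPH was 2.14-fold lower with both drugs (log2 change -1.10, SE 0.37, adjusted p = 0.172, and 0.0648 with the replicate term). A second PSPH probe gave a smaller log2 change for the combination against rapamycin, -0.59. For the combination against DMSO it gave 0.36 where the first gave -0.32, so that the sign for PSPH in that comparison depends on the probe.

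Serine hydroxymethyltransferases split serine into glycine and a one-carbon unit, SHMT1 in the cytosol and SHMT2 in mitochondria. SHMT1 read 716.5 and 688.1 with both drugs, 1214.5 and 855.1 with JQ1, 710.1 and 709.2 with rapamycin, and 965.4 and 919.5 with DMSO. SHMT2, given after its values were seen, read 3654.7 and 4055.7 with both drugs, 4026.1 and 4185.6 with JQ1, 5739.0 and 5727.3 with rapamycin, and 3392.0 and 3437.8 with DMSO. The 2 enzymes thus stood in opposite directions under rapamycin alone. SHMT1 had a log2 change of -0.41 against DMSO and SHMT2 one of 0.75 (SE 0.18, adjusted p = 0.247).

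The mitochondrial folate enzymes MTHFD2 and MTHFD1L oxidise the one-carbon unit and release it as formate. MTHFD2 read 2203.1 and 1278.0 with both drugs, 1525.5 and 1337.6 with JQ1, 3057.5 and 2624.8 with rapamycin, and 1218.1 and 1376.2 with DMSO. MTHFD1L read 671.1 and 535.0 with both drugs, 788.5 and 693.5 with JQ1, 1503.4 and 833.7 with rapamycin, and 958.5 and 905.9 with DMSO. Both rapamycin arrays of MTHFD2 exceeded all others, and both combination arrays of MTHFD1L lay below all others. MTHFD2 was 2.19-fold higher with rapamycin than with DMSO (log2 change 1.13, SE 0.29, adjusted p = 0.280). MTHFD1L was 1.87-fold lower with both drugs than with rapamycin (log2 change -0.90, SE 0.30), a difference that missed the threshold at an adjusted p of 0.175 and passed it with the replicate term at 0.0478. MTHFD1, the cytosolic enzyme, ran between 353.2 and 608.1 over the 8 arrays and its log2 change lay between -0.27 and 0.27 in the 5 comparisons between groups.

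The other synthesis genes held the member with the largest change. CTH, cystathionine gamma-lyase, releases cysteine in the last step of transsulfuration. It read 828.8 and 329.2 with both drugs, 161.9 and 224.1 with JQ1, 860.6 and 421.8 with rapamycin, and 40.4 and 112.8 with DMSO. The groups with rapamycin lay highest, those with DMSO lowest, and JQ1 alone between them without overlap. CTH rose 7.73-fold with both drugs against DMSO (log2 change 2.95, SE 0.64, adjusted p = 0.0417, and 0.0214 with the replicate term). Its log2 change with rapamycin alone was larger, 3.16, at an adjusted p of 0.219. Other CTH probes gave 2.87 and 2.13 for the combination against DMSO. The call rests on all 8 arrays: without any 1 of them the log2 change was 2.21 to 3.69 and the adjusted p 0.0792 to 0.212. It was also lost with an offset of 50 added before log2, without the filter, and with the 2 groups fitted alone. CBS, the enzyme before CTH in the same pathway, ran from 2547.6 to 3283.6 over all arrays, with log2 changes of -0.18 for the combination and -0.03 for rapamycin against DMSO.

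ASNS, asparagine synthetase, read 8854.9 and 3406.4 with both drugs, 2154.0 and 3116.3 with JQ1, 6771.3 and 6945.6 with rapamycin, and 1478.5 and 2153.0 with DMSO. Every array with rapamycin, alone or combined, exceeded every array without it. The fold over DMSO was 3.08 with both drugs (log2 change 1.62, SE 0.46, adjusted p = 0.0838, and 0.0482 with the replicate term) and 3.84 with rapamycin (log2 change 1.94, adjusted p = 0.247). PCK2, the mitochondrial enzyme that makes phosphoenolpyruvate, read 1668.3 and 388.2 with both drugs, 298.3 and 464.2 with JQ1, 1263.0 and 1032.5 with rapamycin, and 249.0 and 415.0 with DMSO. Its rapamycin arrays stood clear of the JQ1 and DMSO arrays, and its combination arrays lay far apart. The log2 change of PCK2 with rapamycin was 1.83 (SE 0.65, adjusted p = 0.403). For the combination against DMSO it was 1.32. Of 2 further PCK2 probes, one gave 1.55 and 1.08 in these comparisons and the other 0.90 and -0.00.

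Other called members of this list were named after their values were seen. GOT1, the cytosolic aspartate aminotransferase, read 3886.6 and 2182.5 with both drugs, 2039.7 and 1971.3 with JQ1, 3438.7 and 2414.3 with rapamycin, and 1689.3 and 1261.9 with DMSO. ASS1, which joins citrulline to aspartate in arginine synthesis, read 545.2 and 586.6 with both drugs, 462.4 and 479.4 with JQ1, 409.8 and 478.7 with rapamycin, and 263.9 and 386.5 with DMSO. For both genes the DMSO arrays were the 2 lowest of the 8. With the replicate term GOT1 rose 2.0-fold (adjusted p = 0.0231, and 0.126 without it) and ASS1 rose 1.77-fold (adjusted p = 0.0270, and 0.0863 without it) with both drugs against DMSO. Other ASS1 probes gave log2 changes of 0.57 and, for one near the floor, -0.58 in that comparison, where this one gave 0.82. GOT2, the mitochondrial counterpart of GOT1, had log2 changes of -0.47 for the combination and -0.38 for rapamycin. The proline enzymes PYCR1 and ALDH18A1, the branched-chain aminotransferases BCAT1 and BCAT2 and glutamine synthetase (GLUL) were not called in any comparison between groups, with either model. Of these PYCR1 had the largest difference, a log2 change of -0.92 for the combination against rapamycin (SE 0.34, adjusted p = 0.210). Further PYCR1 probes, near the floor, gave 0.021 and -0.885 in that comparison. The 3 GLUL probes disagreed, with -0.02, -1.11 and 0.05 for the combination against DMSO.

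**Figure D3:**
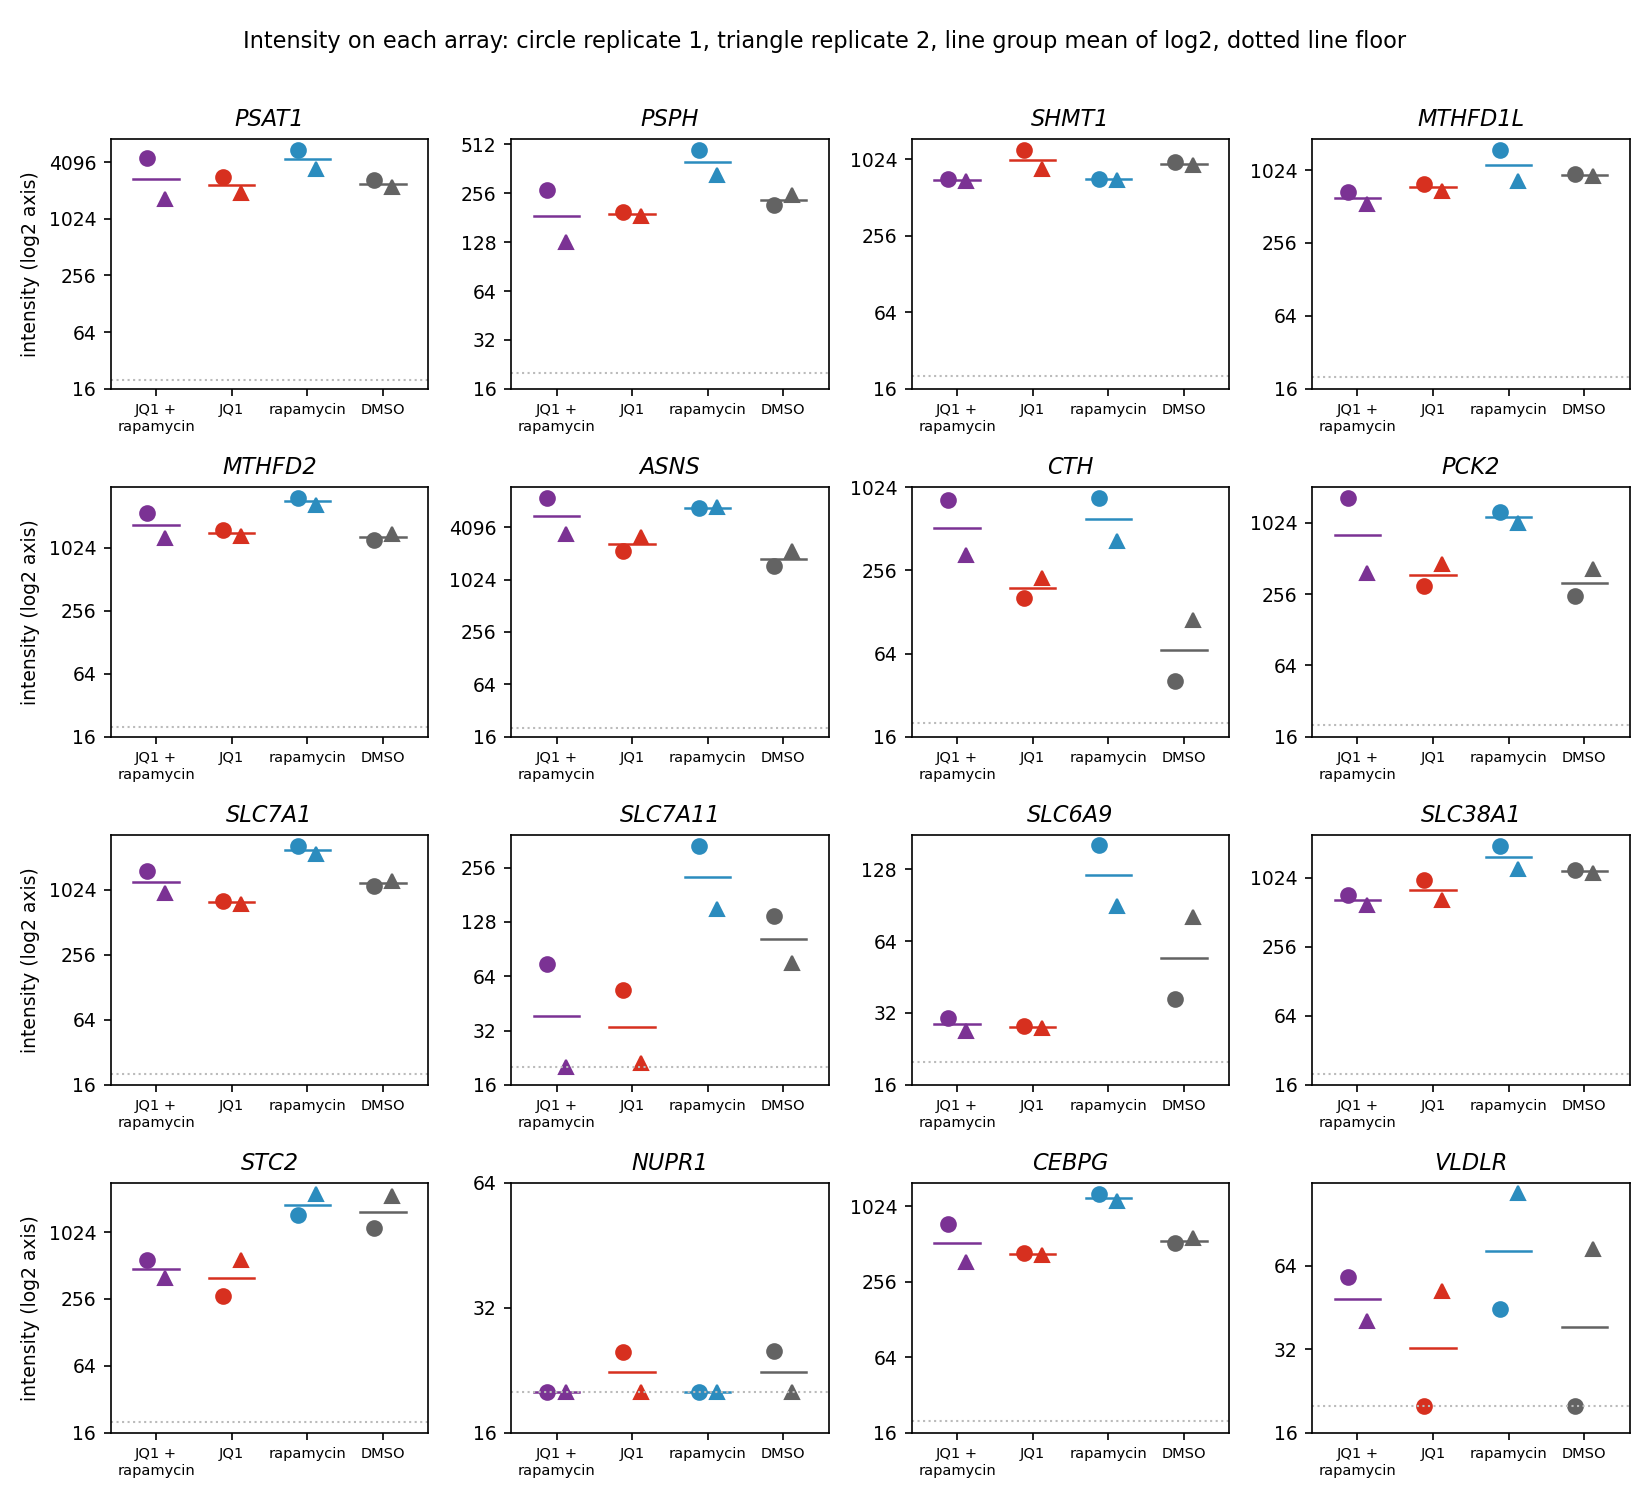
Intensity on each array (log2 axis, panels scaled separately) for the 16 members chosen by the size of their change; circles are replicate 1, triangles replicate 2, bars the group means of log2 values, and the dotted line is the floor of 20. ASNS and CTH read high with rapamycin and with both drugs; SLC7A11, SLC6A9 and STC2 read low in both JQ1 groups; NUPR1 lay at the floor on 6 of 8 arrays.

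Among the 11 transporters, 7 had both combination arrays below both rapamycin arrays and none had them above, where 23.8% and 19.6% of all genes did so. SLC7A11 is the light chain of the cystine/glutamate exchanger. It read 74.5 and the floor of 20 with both drugs, 54.0 and 21.0 with JQ1, 339.7 and 151.7 with rapamycin, and 138.9 and 76.1 with DMSO. The 4 JQ1 arrays lay below all 4 arrays without JQ1, and in every group replicate 2 was the lower. SLC7A11 was 5.88-fold lower with both drugs than with rapamycin (log2 change -2.56, SE 0.76), with an adjusted p of 0.133 that became 0.00452 with the replicate term. Against DMSO its log2 change was -1.41 with both drugs (adjusted p = 0.320, and 0.0125 with the replicate term) and -1.61 with JQ1 (0.330, and 0.0132 with it). As a value at the floor is only an upper bound, the folds with both drugs may be too small.

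SLC6A9, a glycine transporter, read 30.6 and 26.9 with both drugs, 28.1 and 27.7 with JQ1, 161.6 and 90.3 with rapamycin, and 36.5 and 80.8 with DMSO. SLC38A1, a sodium-coupled glutamine transporter, read 720.9 and 595.3 with both drugs, 984.0 and 654.6 with JQ1, 1945.2 and 1233.9 with rapamycin, and 1208.7 and 1132.0 with DMSO. In both genes the JQ1 and combination arrays were lower than every array without JQ1, and the rapamycin arrays were the highest. SLC6A9 was 4.21-fold lower with both drugs than with rapamycin (SE 0.42 on the log2 scale, adjusted p = 0.0560, and 0.0253 with the replicate term). SLC38A1 was 2.37-fold lower in that comparison (log2 change -1.24, adjusted p = 0.0812, and 0.0143 with the replicate term). Against DMSO, SLC38A1 had a log2 change of -0.84 with both drugs (adjusted p = 0.152, and 0.0311 with the replicate term), and a second probe gave -1.52.

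SLC7A1, the cationic amino acid transporter that takes up arginine and lysine, read 1531.7 and 965.9 with both drugs, 813.3 and 756.9 with JQ1, 2608.6 and 2185.5 with rapamycin, and 1109.9 and 1244.2 with DMSO. Its order of arrays was complete at the ends, with rapamycin above and JQ1 below all others. The log2 change was 1.02 with rapamycin against DMSO (SE 0.26, adjusted p = 0.282) and -0.97 with both drugs against rapamycin (adjusted p = 0.104, and 0.0389 with the replicate term). SLC1A4, a neutral amino acid exchanger named after its values were seen, lay near the floor at 20 and 21.7 with both drugs, 20 and 32.3 with JQ1, 40.2 and 49.3 with rapamycin, and 30.9 and 31.1 with DMSO. It was 2.14-fold lower with both drugs than with rapamycin (adjusted p = 0.0812, and 0.0225 with the replicate term).

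The remaining transporters were not called in any comparison between groups with either model. SLC3A2, the heavy chain that partners SLC7A5 and SLC7A11, had a log2 change of 0.88 with rapamycin against DMSO (SE 0.26, adjusted p = 0.318), and both rapamycin arrays, at 2628.3 and 3164.2, exceeded the 6 others. For the combination against DMSO its 2 probes gave 0.31 and 1.06. SLC1A5, the glutamine exchanger ASCT2, had 0.66 with rapamycin and 0.60 with both drugs against DMSO. SLC38A2, a neutral amino acid transporter known to be induced by amino acid starvation, had 0.64 and 0.21 in the same comparisons. SLC7A5, the large neutral amino acid transporter LAT1, had a log2 change of 0.27 with rapamycin against DMSO, and its DMSO arrays, at 3445.9 and 5678.5, enclosed all others. SLC43A1 and SLC36A4 gave -0.36 and -0.26 with rapamycin and -0.51 and -0.06 with both drugs.

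Of the companions, CEBPG, a C/EBP family partner of ATF4, read 735.4 and 368.9 with both drugs, 432.7 and 417.7 with JQ1, 1290.9 and 1123.6 with rapamycin, and 526.6 and 568.7 with DMSO. STC2, a secreted glycoprotein, read 572.5 and 398.7 with both drugs, 269.8 and 578.2 with JQ1, 1451.4 and 2256.0 with rapamycin, and 1117.7 and 2161.7 with DMSO. CEBPG read highest on the 2 rapamycin arrays, whereas STC2 read lower on all 4 arrays with JQ1 than on any without it, and its rapamycin and DMSO arrays overlapped. CEBPG was 2.31-fold lower with both drugs than with rapamycin (log2 change -1.21, SE 0.32, adjusted p = 0.103, and 0.0377 with the replicate term). STC2 had log2 changes of -1.70 with both drugs and -1.98 with JQ1 against DMSO, and -1.92 with both drugs against rapamycin (SE 0.48). Its adjusted p-values were 0.0843, 0.0870 and 0.0871, and 0.0240, 0.0219 and 0.0236 with the replicate term. VLDLR, a lipoprotein receptor, read 58.1 and 40.5 with both drugs, 20 and 52.0 with JQ1, 44.6 and 116.9 with rapamycin, and 20 and 73.5 with DMSO, and the ranges of all 4 groups overlapped. NUPR1, a small stress protein, exceeded the floor on 2 arrays, JQ1 replicate 1 at 25.0 and DMSO replicate 1 at 25.1.

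The interaction compares the JQ1 effect in the presence of rapamycin with the JQ1 effect in its absence. No member was called for it with either model (0% of all genes without the replicate term and 0.00784% with it). At an unadjusted p under 0.05, 2 of 35 members had a negative interaction and none a positive one, against 1.91% and 1.6% of all genes. These were SHMT2 at -0.84 (SE 0.25) and GLUL at -0.94 (SE 0.35) on the log2 scale, both with an adjusted p of 0.999. GLUL lay near the floor, at 31.2 to 59 over the arrays, and its other probes gave -0.45 and -0.167. The median interaction was -0.43 over the members and -0.01 over all genes. CTH had the lowest value, -1.70 (SE 0.90), and its other probes gave -0.98 and -0.765. For the combination against JQ1, ASNS gave 1.08 (SE 0.46, adjusted p = 0.602) and SLC7A1 0.63, while SHMT1 gave -0.54.

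Other genes of the same pathways were read as well. Of 12 further serine, glycine and folate genes, among them GLDC, MTR and TYMS, none was called in any group comparison with either model, and 3 of 12 had a positive log2 change with rapamycin against DMSO (median -0.11), where 48.1% of all genes did. Of 14 further synthesis genes 7 were positive with rapamycin, and none was called without the replicate term. With it, OAT, ODC1 and BCKDHB were called higher for the combination against DMSO (7.77% of all genes), OAT for JQ1 against DMSO (4.48%), and OAT and BCKDHB for the combination against rapamycin (4.27%). Of 16 further transporters 7 were positive with rapamycin (median -0.19), and 1 was called lower in each of 2 comparisons, the combination against DMSO (4.25% of all genes) and against rapamycin (1.68%, with 0.941% higher). With the replicate term, SLC7A8 and SLC6A6 were called higher and SLC7A6, SLC38A9, SLC43A3 and SLC25A12 lower for the combination against DMSO (7.77% and 11.2% of all genes). For JQ1 against DMSO, SLC7A8 was then called higher and SLC7A6, SLC38A9 and SLC25A12 lower (4.48% and 6.7%), and for the combination against rapamycin SLC16A10 was called higher and SLC38A7, SLC38A9 and SLC43A3 lower (4.27% and 7.05%). SLC7A6, an exchanger of cationic amino acids, read 53.6 and 49.2 with both drugs, 118.5 and 77.2 with JQ1, 91.1 and 67.2 with rapamycin, and 170.6 and 183.2 with DMSO. It fell by 1.78 on the log2 scale with both drugs against DMSO (SE 0.27, adjusted p = 0.0161). SLC38A9, a lysosomal arginine sensor upstream of mTORC1, read 52.1 and 76.4 with both drugs, 53.2 and 51.6 with JQ1, 187.6 and 173.4 with rapamycin, and 108.9 and 118.6 with DMSO. It fell by 1.51 with both drugs against rapamycin (SE 0.23, adjusted p = 0.0286). SLC7A6 was called in 4 of the 8 fits that each left out 1 array, and SLC38A9 in none of them.

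The regulators of the response were read on the same arrays, 16 genes in all. Of these 13 had a positive log2 change with rapamycin against DMSO (median 0.89), where 48.1% of all genes did (median 0). The 13 include CHAC1 and SESN2, which passed the filter only through arrays where they read high, both rapamycin arrays among them. ATF4 read 23767.0 and 17123.9 with both drugs, 12907.6 and 18618.1 with JQ1, 23020.5 and 22036.0 with rapamycin, and 12602.3 and 13752.8 with DMSO. DDIT3, the transcription factor CHOP, read 7055.3 and 781.9 with both drugs, 175.0 and 207.8 with JQ1, 2631.2 and 1524.3 with rapamycin, and 120.3 and 92.9 with DMSO. TRIB3, a pseudokinase induced by ATF4 and CHOP, read 1367.8 and 105.4 with both drugs, 56.1 and 97.9 with JQ1, 6057.2 and 2859.6 with rapamycin, and 276.9 and 584.7 with DMSO. DDIT3 was high wherever rapamycin was present, whereas TRIB3 was high with rapamycin alone and spread over a wide range with both drugs. DDIT3 rose with both drugs against DMSO by 4.47 on the log2 scale (SE 0.90, adjusted p = 0.0350). So did ATF3, a stress-induced factor, by 3.85 (SE 0.81, adjusted p = 0.0388), where 2.93% of all genes were called higher. The log2 change of DDIT3 with rapamycin alone was 4.24 and that of ATF4 0.77, neither called. Each of the calls for DDIT3 and ATF3 held in 1 of the 8 fits that left out an array.

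CHAC1, a glutathione-degrading enzyme, lay at the floor on both DMSO arrays, both JQ1 arrays and combination replicate 2. It read 141.1 on combination replicate 1 and 148.0 and 127.2 with rapamycin, at least 6.86-fold above DMSO. SESN2, an inhibitor of mTORC1 signalling, had the same 5 arrays at the floor and read 364.8 on combination replicate 1 and 113.3 and 47.2 with rapamycin. Both genes passed the filter only through the 3 arrays where they read high, so these values are a description with no test. They are included in the count of regulators with a positive change above and in the replicate counts below. CEBPB read 15042.3 and 5773.4 with both drugs, 4470.4 and 5224.1 with JQ1, 11563.3 and 9970.2 with rapamycin, and 3748.8 and 5711.3 with DMSO. ATF5 and the amino acid sensing kinase EIF2AK4 were not called, and with rapamycin against DMSO they gave log2 changes of -0.57 and -0.24. With the replicate term DDIT3, ATF3 and MYC were called higher for the combination against DMSO (7.77% of all genes). MYC was not called without that term. It read 975.8 and 235.1 with both drugs, 276.5 and 175.4 with JQ1, 302.7 and 168.3 with rapamycin, and 105.2 and 120 with DMSO.

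The 2 arrays of the combination lay over 2-fold apart in more of these genes than the arrays of the other groups did. Replicate 1 was over 2-fold above replicate 2 in 6 of 35 members (17.1%), against 3.1% of all genes. These were PCK2 (a log2 difference of 2.10), SLC7A11 (1.90), PSAT1 (1.43), ASNS (1.38), CTH (1.33) and PSPH (1.07). With JQ1 alone 1 member differed so far in that direction, with rapamycin alone 2, and with DMSO none, where 2.31%, 2.19% and 2.49% of all genes did. Replicate 2 was over 2-fold above replicate 1 in no member with both drugs, 2 with JQ1, 1 with rapamycin and 3 with DMSO, where 5.82%, 5.36%, 4.5% and 4.23% of all genes were. Of the 16 regulators, 7 (43.8%) were over 2-fold higher in replicate 1 than in replicate 2 of the combination, TRIB3 (3.70) and DDIT3 (3.17) among them. The 7 include SESN2 (4.19) and CHAC1 (2.82), which passed the filter only through arrays where they read high. Combination replicate 1 was one of those arrays, so the filter favours their place in this count. A mean over these 2 arrays therefore describes neither well for these genes, and the differences between the arrays were not tested within the group.

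**Figure D4:**
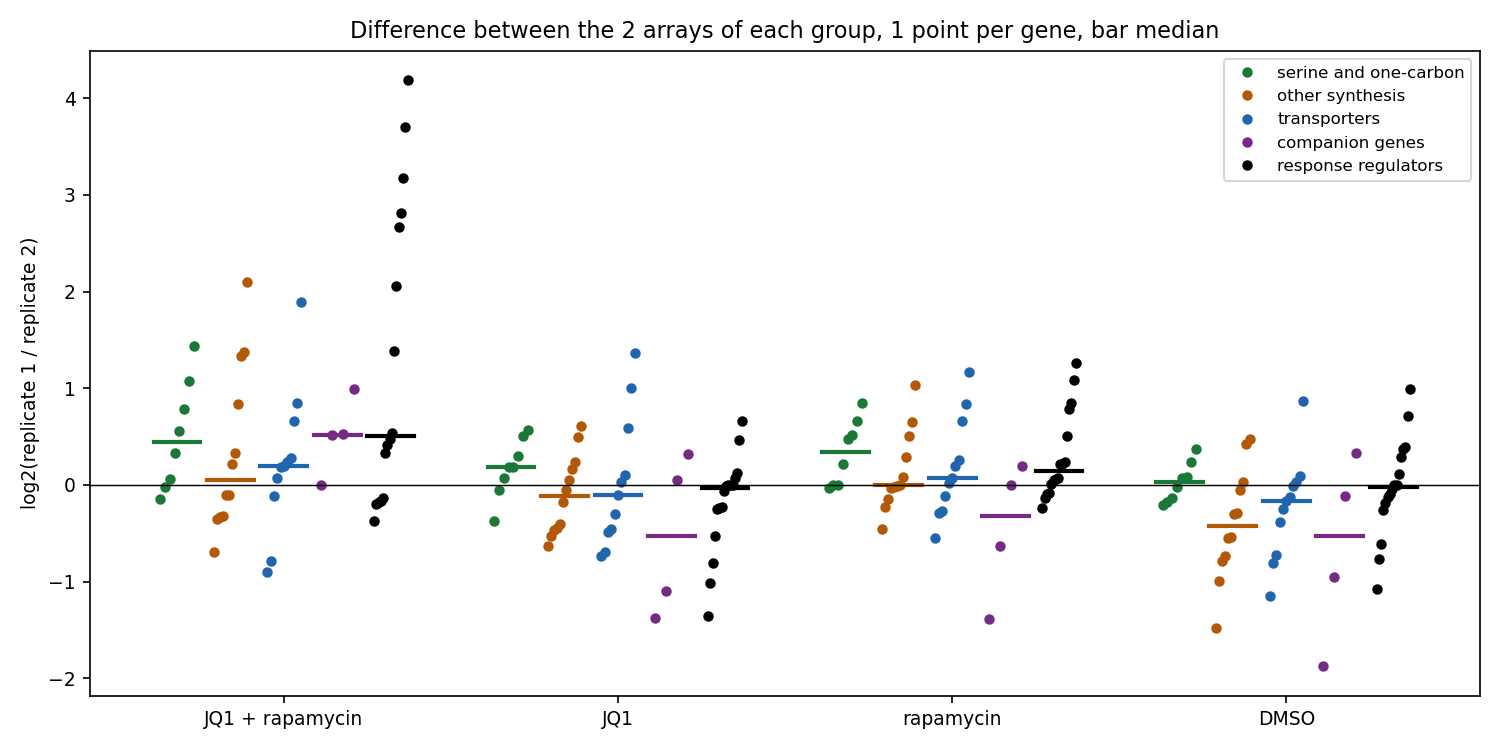
Log2 of replicate 1 over replicate 2 within each group, 1 point per gene, with the median of each list as a bar. In the combination, 6 of 35 members and 7 of 16 regulators lie above 1, which is 2-fold. The 7 include SESN2, highest at 4.19, and CHAC1, which both passed the filter only through arrays where they read high.

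Across groups, replicate 2 differed from replicate 1 in 2 members at an adjusted p under 0.05, where 8.1% of all genes were higher and 4.38% lower. SLC7A11 was lower in replicate 2 by 1.32 on the log2 scale (adjusted p = 0.00809), and BCAT1 was higher by 0.59 (adjusted p = 0.0280). BCAT1 read 1187.3 and 1918.3 with both drugs, 1575.2 and 2145.5 with JQ1, 1580.1 and 2162.8 with rapamycin, and 1395.9 and 2405.5 with DMSO. Its replicates were thus further apart than its groups. The labels do not say what the replicate number stands for.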

How the data were processed

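Per the labels' protocols, RNA was isolated by Trizol extraction and column clean-up with DNase, and was labelled as biotinylated cRNA for Illumina arrays. The authors deposited normalized linear probe intensity, with a floor of 20, in the table of values used for the results, and the other deposited table holds non-normalized intensity, 28.3% to 30.3% of it below 0 per array. No source used here gives the normalization method, and no aligner or genome build applies to these files. Depth has no counterpart on arrays, and 2 arrays per group limit the precision.

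Of 47304 probes, the platform annotation gave 30102 a single gene symbol, 8 several and 17194 none; symbols of 30063 were updated to RefSeq GRCh38.p14 by gene identifier. Probes above 20 on at least 2 of the 8 arrays were kept (23860), and the brightest, by mean of log2 values, represented each of 12759 genes. A linear model with 1 coefficient per group was fitted over the 8 arrays with limma 3.58.1 in R 4.3.3 (4 residual and 2.92 prior degrees of freedom), p-values were adjusted by Benjamini-Hochberg over all genes of each comparison, and under 0.05 a gene was called. Standard errors are limma's moderated ones. The code was tested on simulated data.

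Titles number the arrays of each group 1 and 2. Differences between replicates 1 and 2 correlated at 0.363 to 0.471 in all 6 pairs of groups, so a fit with the replicate number as a block is given where it changes a call. Alternatives covered the non-normalized table, an offset, filters, the probe rule, centring, quantile normalization, variance settings, array weights, the groups fitted, the threshold and leaving out each array. Full values are given for members called in a group comparison and, in each role, the 3 with the largest change of the combination or of rapamycin against DMSO; from the other lists, called genes and 8 regulators fixed by name. Members, lists and rules were chosen with earlier results of these data known. Probes without a symbol or with several entered no test. Promoter windows are RefSeq's (GRCh38.p14).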

Additional observations from a re-analysis of the deposited data

How the results depend on the processing

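Only 2 arrays stood behind each group, and values at the floor of 20 are upper bounds, which limits SLC7A11, SLC1A4, VLDLR and NUPR1. Counts over all genes follow those of the members in brackets. For the combination against DMSO, where 1 member was called [916], the count was 7 [2416] with the replicate block, 3 [1220] with the non-normalized signals matched to the same arrays, and 0 with the names in that table's header [221], with an offset of 50 added before log2 [1036], with no filter [236], with the groups compared fitted alone [0], or at an adjusted p under 0.01 [117]. Leaving out 1 array gave 0 to 1 [0 to 555]. For JQ1 against DMSO, where none was called [361], the replicate block gave 2 [1427] and the matched non-normalized signals 1 [547]. For the combination against rapamycin, where none was called [334], the replicate block gave 8 [1445], the matched non-normalized signals 4 [596], and the offset of 50 [397] and a filter requiring all arrays above the floor [325] 1 each. Leaving out 1 array gave 0 in all group comparisons but the combination against DMSO. For replicate 2 against replicate 1, where 2 members were called [1593], the count was 7 [2627] with matched non-normalized signals, 10 [3691] with header names, 5 [2123] with the offset, 0 [170] without a filter, 4 [1858] with all arrays above the floor, 5 with median centring [1662] or quantile normalization [1673], 9 [2429] with a trended robust variance, 1 [374] at an adjusted p under 0.01, and 0 to 2 [148 to 332] without 1 array. Members with both combination arrays below both rapamycin arrays numbered 16, and 19 to 25 when an array was left out, an alternative chosen after the data were seen, with 25 without combination replicate 1. Of all genes 23.8% lay below with every array in, and 34.3% to 37.9% when one was left out. These counts cannot fall when an array is left out, so they do not test the result. Among values of the 16 members given in full with an unadjusted p under 0.05, 11 changed sign under the header names: PSPH for the combination against rapamycin (0.05), MTHFD2 for rapamycin against DMSO (-0.16) and for the combination against rapamycin (0.48), ASNS for the combination against JQ1 (-0.72), SLC7A1 for rapamycin against DMSO (-0.08), the combination against JQ1 (-0.61) and the combination against rapamycin (0.47), SLC7A11 for the combination against rapamycin (0.23), STC2 for the combination (0.77) and for JQ1 (0.79) against DMSO, and CEBPG for the combination against rapamycin (0.34). No such change of sign occurred under the other alternatives run. The cause of these differences was not tested, except that header names exchange arrays between groups and a left-out array lowers the residual degrees of freedom.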

Other observations

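OAT, ornithine aminotransferase, which links proline and glutamate to the urea cycle, read 1951 and 2725.3 with both drugs, 2129.7 and 2942.2 with JQ1, 1111.7 and 1348.7 with rapamycin, and 1357.8 and 1291.3 with DMSO. All 4 arrays with JQ1 lay above all 4 without it. The log2 change was 0.80 with both drugs and 0.92 with JQ1 against DMSO, and 0.91 with both drugs against rapamycin (SE 0.26 each). OAT was called in all 3 comparisons with the replicate term (adjusted p = 0.0344, 0.0321 and 0.0322) and in none without it (0.117, 0.120 and 0.120). MAT2A, which makes S-adenosylmethionine, read 2777 and 3334.3 with both drugs, 5387.2 and 5238.1 with JQ1, 2142.2 and 1921.5 with rapamycin, and 3700.6 and 3195 with DMSO. Its rapamycin arrays were the lowest and its JQ1 arrays the highest of the 8, and it was not called in any comparison between groups. Both genes were chosen after their values were seen.

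RUNX2, a transcription factor of the bone lineage, lay at the floor of 20 on all 4 arrays with JQ1 and read 95.7 and 75.5 with rapamycin and 96.5 and 110.9 with DMSO. It was thus at least 5.17-fold lower with the combination and with JQ1 than with DMSO. RUNX2 passed the filter only through the 4 arrays where it read high, so this is a description with no test. SPARC, another of the mesenchymal markers, went the other way. It read 397.2 and 636.2 with both drugs, 488.8 and 784 with JQ1, 293.7 and 340 with rapamycin, and 278.3 and 317.4 with DMSO. With the replicate term SPARC was called higher with both drugs and with JQ1 against DMSO (7.77% and 4.48% of all genes), and it was not called without that term. COL1A1, CDH2 and VIM were not called in any group comparison with the replicate term.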
